A study of Mus musculus with 9 samples.

Results

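The core circadian clock genes described here are the 10 listed members of the transcriptional feedback loop and its first outputs, Arntl, Clock, Per1, Per2, Per3, Cry1, Cry2, Nr1d1, Nr1d2, and Dbp. They were taken by symbol from the expression table of the series, in which each had 1 row among 24341 genes. The clock of nearly every cell is a delayed feedback loop. The proteins ARNTL (also called BMAL1) and CLOCK form a dimer that binds E-box DNA and activates the Per, Cry, and Nr1d genes, and the PER and CRY proteins then inhibit that dimer. NR1D1 and NR1D2 (REV-ERB alpha and beta) repress Arntl at RORE elements, and DBP activates genes that carry D-boxes. In the liver this loop times bile acid, drug, sugar, and lipid metabolism, and its genes peak at different hours of the day.

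Liver RNA came from 9 wild-type (WT) C57BL/6 mice. Of these, 3 mice, numbered 2, 5, and 9, received an agonist antibody against the immune receptor CD40 (clone FGK45, referred to as anti-CD40). The other 6 mice, numbered 3, 4, 7, 8, 11, and 12, received PBS. Livers were taken 48 hours later. The study's methods say that some treated animals were left out because the antibody had not lowered their blood B cells, and do not say whether this touched the mice sequenced here. The hour of the day at which each liver was taken, the lighting schedule, and each animal's age and sex were not given in the labels. The methods say that, unless stated otherwise, the study's mice were matched by sex and 8 to 12 weeks old. The mouse numbers are not shared by the groups, and each library was 1 mouse. Libraries were read from the 3′ end of the transcripts (QuantSeq), and values are FPKM, which divide the reads by transcript length. Because a 3′ library does not give more reads for a longer transcript, FPKM is compared here between mice for the same gene and not between genes.

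All fold changes are differences in log2(FPKM + 0.1) between the 3 anti-CD40 and the 6 control mice, tested with limma across 13807 genes and called at a Benjamini-Hochberg adjusted p under 0.05. The absolute depth is unknown, and relative depth ranged over 0.991 to 1.13 in the anti-CD40 and 0.870 to 1.06 in the control libraries. Whole reads could be recovered from the steps between values for Per1, Per2, Per3, Cry1, Cry2, and Nr1d1, and not for Arntl, Clock, Nr1d2, and Dbp. Markers of liver cells were present in every mouse, with a summed FPKM of 8 hepatocyte markers of 22895 to 25446 in the anti-CD40 and 19360 to 39571 in the control mice, and 3 of them called higher and 4 lower. The 10 leukocyte markers summed to between 1251 and 1873 in the anti-CD40 mice against 162 to 290 in the control mice, and 9 of them were called higher and 0 lower. Of all tested genes, 23.5% were called higher and 21.7% lower. In control mouse 4 the 6 erythroid markers summed to 50531, against 4176 to 14320 in the other mice, with Hba-a1 at the floor of the table in every mouse. In anti-CD40 mouse 5 the 7 pancreatic acinar markers summed to 650, against 27.4 to 190 in the other mice, with Amy2a5 at the floor in every mouse. In bulk liver, fewer cells of a type and less RNA per cell cannot be told apart, and the part of these cell types in the results below was not tested.

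The start regions of the genes show where matches to the loop's DNA elements lie close by. RefSeq promoters (build GRCm38.p6, 250 bases before to 50 after the start) were found for 9 of the 10 genes, Per2 having no entry. They were searched on both strands for the E-box CACGTG, the RORE core TNGGTCA, and the D-box TTANGTAA, which do not overlap each other in these windows. An E-box was found in 2 genes (Per1 and Cry1), a RORE in 3 (Arntl, Per3, and Cry2), and a D-box in 1 (Per3), so that 5 of 9 held any of them. Among all 32851 promoters of the table, 7.15% held the E-box, 11.0% the RORE, and 2.32% the D-box. A match is a description and not a site, and the regulatory elements of several clock genes are known to lie outside such a window. The RORE core allows any base at N, and the bases around it were not part of the search. Its matches, those of Arntl included, are therefore not shown to be the elements that NR1D1 and NR1D2 bind. The 3 promoters below are printed to show matches of each kind. They are the RORE matches of Arntl, the D-box matches of Per3, a gene that fell, and the E-box match of Per1, a gene that did not pass the test. Each is written 5′ to 3′ on the gene's own strand, with matches in capitals. The Arntl promoter (chr7:113207215-113207514, plus strand) has RORE matches that begin at -200 and -181 from the start. The Per3 promoter (chr4:151044616-151044915, minus strand) has D-box matches that begin at -205 and -158, and a RORE match on the opposite strand, read here as TGACCAA, that begins at -118. The Per1 promoter (chr11:69098699-69098998, plus strand) has its E-box match at -166. The table lists 2 promoters each for Arntl and Per1, and the one nearest to the annotated start is shown.
Arntl: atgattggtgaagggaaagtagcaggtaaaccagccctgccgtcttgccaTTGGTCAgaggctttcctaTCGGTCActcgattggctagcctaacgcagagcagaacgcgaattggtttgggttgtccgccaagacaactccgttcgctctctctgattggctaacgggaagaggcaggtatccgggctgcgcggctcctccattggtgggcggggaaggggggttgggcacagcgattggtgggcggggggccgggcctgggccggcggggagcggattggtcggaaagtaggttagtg
Per3: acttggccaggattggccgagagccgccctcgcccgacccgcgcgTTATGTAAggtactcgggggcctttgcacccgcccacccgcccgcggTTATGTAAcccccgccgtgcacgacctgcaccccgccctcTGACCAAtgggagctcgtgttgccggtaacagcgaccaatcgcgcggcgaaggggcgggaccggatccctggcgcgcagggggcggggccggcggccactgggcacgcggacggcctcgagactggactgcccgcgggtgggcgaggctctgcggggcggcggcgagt
Per1: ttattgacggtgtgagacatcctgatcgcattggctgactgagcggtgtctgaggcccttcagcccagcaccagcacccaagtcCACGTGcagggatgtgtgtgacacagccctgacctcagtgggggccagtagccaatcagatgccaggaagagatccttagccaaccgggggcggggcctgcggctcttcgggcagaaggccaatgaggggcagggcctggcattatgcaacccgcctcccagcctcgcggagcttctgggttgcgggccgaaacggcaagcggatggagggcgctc

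Of the 10 clock genes, 4 were lower in the anti-CD40 mice (Nr1d1, Nr1d2, Per3, and Cry2), 0 were higher, and 6 did not pass the test. All 10 passed the filter on low values. Across all tested genes 21.7% were called lower, 23.5% higher, and 45.1% either way, so the share of clock genes called, 40%, was close to that of the table as a whole and is no result about the list. In 3 of the 10 the groups did not overlap, all with the anti-CD40 mice lower, a pattern that 19.6% of all tested genes had. The median log2 fold change was -0.69 over the 10 genes and 0.0056 over all tested genes. At an unadjusted p under 0.05 in limma, 0 were higher and 5 lower, with Dbp added. The plot of the values by mouse shows every gene on its own axis.

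**Figure D1:**
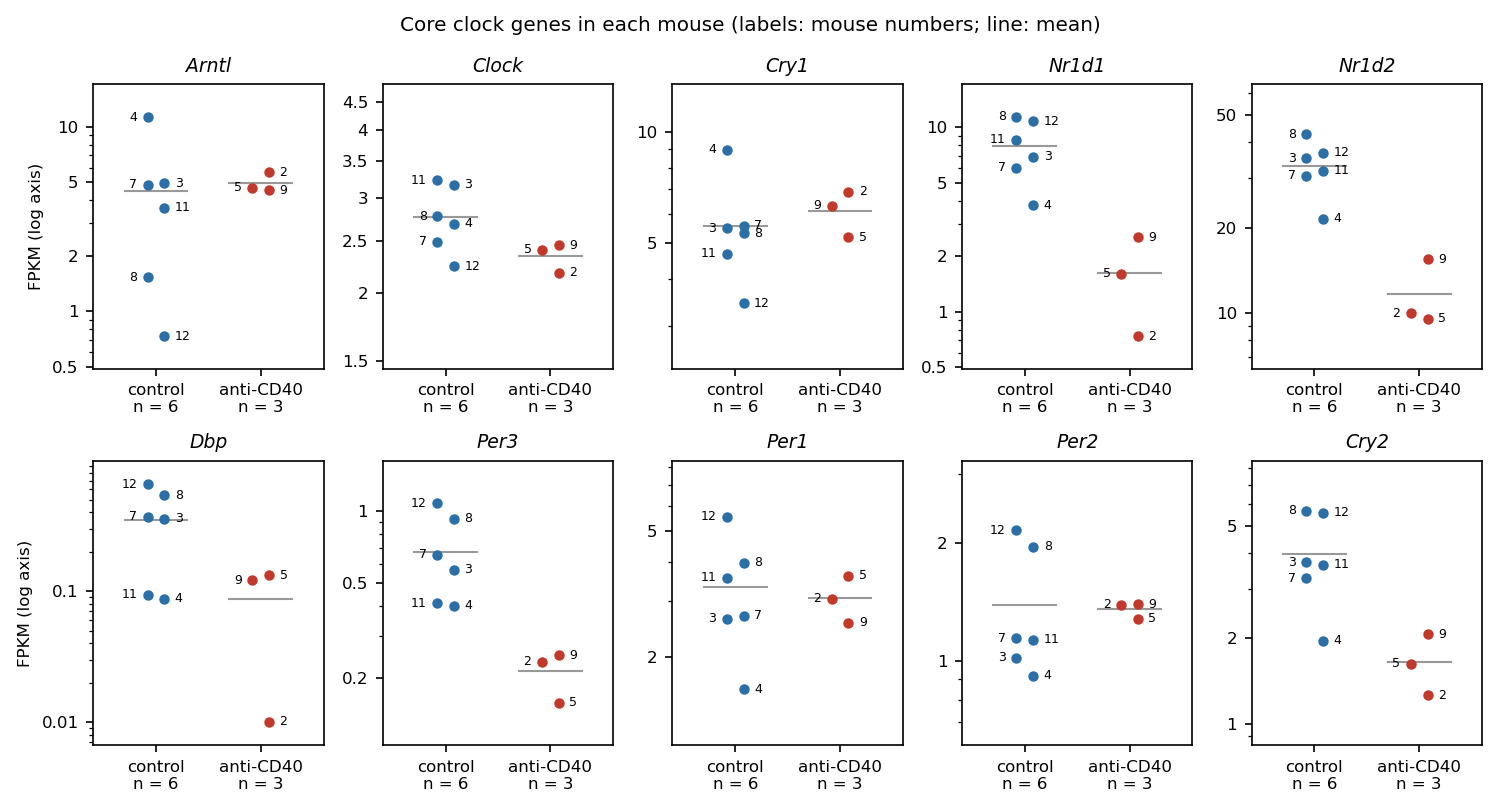
FPKM of the 10 core clock genes in each mouse, on log axes with a range set for each gene; points are mice labelled with their numbers (blue, 6 control; red, 3 anti-CD40) and grey lines are group means. The groups were apart for Nr1d1, Nr1d2, and Per3, whereas the anti-CD40 values of Arntl, Cry1, Per1, and Per2 lay within the control range; Dbp in mouse 2 is at the floor of 0.01.

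The repressors of Arntl, Nr1d1 and Nr1d2, were both lower in the anti-CD40 mice. Nr1d1, which encodes the haem-binding receptor REV-ERB alpha, had an FPKM of 0.740, 1.61, and 2.53 in anti-CD40 mice 2, 5, and 9 and of 6.93, 3.78, 6.06, 11.4, 8.59, and 10.8 in control mice 3, 4, 7, 8, 11, and 12. Every anti-CD40 mouse was below every control mouse, and mouse 4 was the lowest control. The mean was 1.63 ± 0.897 (SD, n = 3) against 7.93 ± 2.91 (SD, n = 6), and the log2 fold change was -2.27 (SE 0.40, 95% interval -3.16 to -1.39, adjusted p = 0.00102), a 4.84-fold lower value. In whole reads, Nr1d1 had 42, 86, and 126 in the anti-CD40 mice against 200 to 498 in the control mice.

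Nr1d2, its paralog, had an FPKM of 9.98, 9.54, and 15.5 in the anti-CD40 mice and of 35.1, 21.5, 30.5, 42.7, 31.8, and 36.8 in the control mice, in the same order of mice. The groups did not overlap, and mouse 4 was again the lowest control and mouse 9 the highest anti-CD40 mouse. The mean was 11.7 ± 3.30 (SD, n = 3) against 33.1 ± 7.11 (SD, n = 6), with a log2 fold change of -1.50 (SE 0.22, 95% interval -1.99 to -1.01, adjusted p = 0.000316), a 2.83-fold lower value. Both genes passed the test under each of 20 alternative settings, with log2 fold changes from -2.65 to -1.75 for Nr1d1 and from -1.72 to -1.14 for Nr1d2.

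In the main analysis Nr1d1 was lower by more than Nr1d2. The log2 ratio of Nr1d1 to Nr1d2 within a mouse was -2.88 ± 0.611 (SD, n = 3) in the anti-CD40 and -2.11 ± 0.298 (SD, n = 6) in the control mice, a difference of -0.77 with no overlap (2-sided exact permutation p = 0.0238, the smallest that 84 splits allow; adjusted over 6 pairs, 0.0476). Without anti-CD40 mouse 2 the difference was -0.42, and with a pseudocount of 1 in place of 0.1 it was -0.32 and did not pass. The adjusted value passes only because the ratios of Per1 to Per3 and of Per2 to Per3, given below, tie at the same smallest p.

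The 3′ end of Nr1d1, on the minus strand of chromosome 11, overlaps that of Thra, a thyroid hormone receptor gene on the plus strand, over 1075 bases in GENCODE. Thra was also lower (log2 fold change -0.69, SE 0.18, adjusted p = 0.00934), by less than Nr1d1. The positions listed with the FPKM values, 98767932 to 98775377 for Nr1d1 and 98741873 to 98765111 for Thra, do not overlap. The Thra value therefore rests on a position that ends before the GENCODE overlap. Whether the counting used the strand was not given in the sources used here. Whether the Nr1d1 value holds Thra reads from the GENCODE overlap thus cannot be told.

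Among the targets that lie between activation and repression, Per3 fell and Per1 and Per2 did not pass the test. PER3 is the PER protein that is least needed for the rhythm itself. Per3 had an FPKM of 0.233, 0.157, and 0.249 in anti-CD40 mice 2, 5, and 9 and of 0.569, 0.401, 0.657, 0.930, 0.411, and 1.08 in control mice 3, 4, 7, 8, 11, and 12. The groups did not overlap, with mice 4 and 11 the lowest controls. Per3 had a fitted log2 fold change of -1.24 (SE 0.30, 95% interval -1.91 to -0.58, adjusted p = 0.00637). This was a 2.37-fold lower value, from 19 to 30 reads a mouse against 45 to 113. With a pseudocount of 1, which shrinks changes of low genes, it was -0.45 and still passed.

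Per1, a PER gene that is also induced directly by glucocorticoids and other signals, had an FPKM of 3.06, 3.62, and 2.57 in the anti-CD40 mice and of 2.64, 1.58, 2.70, 3.98, 3.57, and 5.57 in the control mice. The anti-CD40 values lay inside the control range, which ran from mouse 4 to mouse 12. The log2 fold change was -0.027 (95% interval -0.74 to 0.69, adjusted p = 0.955), an interval that holds changes in both directions. Per2, the PER gene most central to the rhythm, had an FPKM of 1.39, 1.28, and 1.40 against 1.02, 0.920, 1.15, 1.96, 1.14, and 2.15. The anti-CD40 mice were close together, above 4 of the controls and below mice 8 and 12. Its log2 fold change was 0.038 (95% interval -0.55 to 0.62, adjusted p = 0.919), and the sign of Per1 and of Per2 depends on the scaling.

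The divergence among the Per genes was itself tested. Within a mouse, the log2 ratio of Per2 to Per3 was 2.23 ± 0.174 (SD, n = 3) in the anti-CD40 and 0.95 ± 0.204 (SD, n = 6) in the control mice. That is a difference of 1.28 with no overlap (2-sided exact permutation p = 0.0238; adjusted over 6 pairs, 0.0476). The ratio of Per1 to Per3 differed by 1.22, also with no overlap (exact p = 0.0238; adjusted, 0.0476). Both ratios share Per3, and their adjusted values pass only through their tie with the ratio of Nr1d1 to Nr1d2. The ratio of Per1 to Per2 differed by -0.065 (exact p = 0.786; adjusted, 0.786). With a pseudocount of 1 in place of 0.1, which is above all but 1 of the Per3 values, the differences against Per3 were 0.46 for Per2 and 0.41 for Per1 and did not pass.

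Of the CRY repressors, Cry2 fell and Cry1 did not pass the test. Cry2, the weaker repressor of the pair, had an FPKM of 1.26, 1.63, and 2.07 in the anti-CD40 mice and of 3.72, 1.96, 3.26, 5.66, 3.65, and 5.56 in the control mice. The groups overlapped only at control mouse 4, whose 1.96 was below the 2.07 of anti-CD40 mouse 9. Cry2 had a fitted log2 fold change of -1.16 (SE 0.31, 95% interval -1.84 to -0.48, adjusted p = 0.0108), and it was -0.99 with an adjusted p of 0.0588 without anti-CD40 mouse 2. Its reads were 106, 129, and 153 in the anti-CD40 mice against 154 to 381 in the control mice, and the table gives its position also to 1 other gene name.

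Cry1, the stronger and later repressor, had an FPKM of 6.88, 5.18, and 6.32 in the anti-CD40 mice and of 5.49, 8.92, 5.57, 5.32, 4.68, and 3.45 in the control mice. The anti-CD40 values lay within the control range, between mouse 12 at the bottom and mouse 4 at the top. Cry1 had a fitted log2 fold change of 0.18 (SE 0.24, 95% interval -0.36 to 0.72, adjusted p = 0.569). The ratio of Cry1 to Cry2 was 1.34 higher on the log2 scale in the anti-CD40 mice, which did not pass (2-sided exact permutation p = 0.0714; adjusted over 6 pairs, 0.107). Its control values ran from -0.67 to 2.13, and the anti-CD40 values of 1.56 to 2.36 overlapped them.

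The activators did not separate the groups. Arntl, without which the clock stops, had an FPKM of 5.69, 4.67, and 4.53 in anti-CD40 mice 2, 5, and 9 and of 4.95, 11.3, 4.86, 1.53, 3.64, and 0.736 in control mice 3, 4, 7, 8, 11, and 12. The 3 anti-CD40 mice were near to control mice 3 and 7, while mouse 4 was far above and mice 8 and 12 far below. The highest control value was 15.3 times the lowest, and the highest anti-CD40 value 1.26 times the lowest. The log2 fold change was 0.58 (SE 0.67, 95% interval -0.90 to 2.07, adjusted p = 0.505). The interval was too wide to show either a rise or a fall.

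Clock, the partner of Arntl, had an FPKM of 2.18, 2.41, and 2.45 in the anti-CD40 mice and of 3.17, 2.69, 2.49, 2.77, 3.23, and 2.24 in the control mice. The anti-CD40 mice were at the low end, and only control mouse 12 lay among them. Clock had a fitted log2 fold change of -0.22 (SE 0.14, 95% interval -0.54 to 0.098, adjusted p = 0.239), and its sign turned with another scaling. The table lists Clock at a position that it shares with 4 other gene names, among them Tmem165, whose log2 fold change was 0.997 (adjusted p = 0.00729). The ratio of Arntl to Clock differed by 0.80 between the groups (2-sided exact permutation p = 0.357; adjusted over 6 pairs, 0.429).

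Dbp, the D-box activator that in the liver is known for one of the widest daily swings of all genes, did not pass the test. In anti-CD40 mouse 2 it was not above the floor, an FPKM of 0.01, and it was at 0.132 and 0.121 in mice 5 and 9 and at 0.359, 0.0876, 0.370, 0.542, 0.0939, and 0.658 in the control mice. The controls fell into high values and, in mice 4 and 11, values below those of anti-CD40 mice 5 and 9. The log2 fold change was -1.15 (SE 0.49, 95% interval -2.24 to -0.058, adjusted p = 0.0807; 2-sided exact permutation p = 0.143). It passed without control mouse 4 (-1.37, adjusted p = 0.0299) and without control mouse 11 (-1.36, adjusted p = 0.0405), and also after quantile normalization (-1.45, adjusted p = 0.0379) and with array weights (-1.12, adjusted p = 0.0416). It ran from -1.98 to -0.30 with pseudocounts of 0.01 and 1 and did not pass with either.

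The level of Dbp carries a limit of its own. The table gives Dbp (plus strand) and Sphk2, a sphingosine kinase gene on the minus strand, 1 shared position on chromosome 7, 45705247 to 45718002, and their 3′ ends overlap over 737 bases in GENCODE (45709467 to 45710203). Sphk2 had an FPKM of 13.8, 14.6, and 19.6 in the anti-CD40 mice and of 29.3, 17.8, 26.8, 40.4, 25.0, and 44.0 in the control mice. Among the controls mice 12 and 8 were highest and mouse 4 lowest, as for Per1, Per2, and Per3, and its log2 fold change was -0.88 (SE 0.26, adjusted p = 0.0195). Which of the 2 genes the reads of the overlap came from cannot be told apart here.

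**Figure D2:**
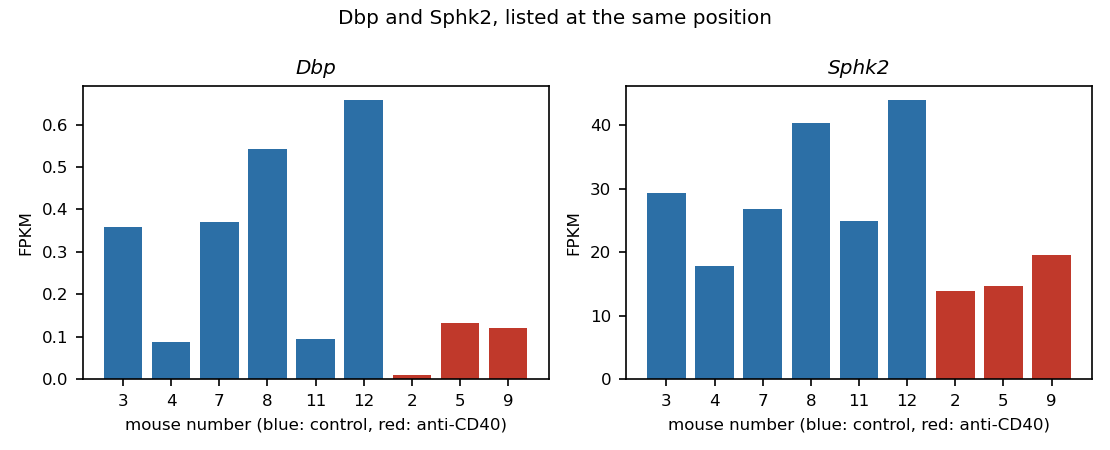
FPKM of Dbp and of Sphk2, which the table lists at the same position, as bars from 0 for each mouse (blue, 6 control; red, 3 anti-CD40), with a separate axis for each gene. Control mice 8 and 12 were highest for both, and Dbp rested on an FPKM under 0.7 in every mouse while Sphk2 was at 13.8 or more.

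The control mice differed among themselves in these genes, and in 9 of the 10 by more than the median of all tested genes. The SD of log2(FPKM + 0.1) over the 6 control mice was 1.33 for Arntl, and 1.35% of the tested genes had a larger one. It was 0.86 for Dbp (4.51% larger), 0.60 for Per1 (12.3% larger), and 0.58 for Nr1d1 (13.1% larger). Clock was the exception at 0.20, below that median of 0.30.

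In most of these genes the same control mice were at the ends of the range. Mouse 4 had the highest Arntl and Cry1 of the controls and the lowest Per1, Per2, Per3, Cry2, Nr1d1, Nr1d2, and Dbp. Mouse 12 was its opposite, with the lowest Arntl, Clock, and Cry1 and the highest Per1, Per2, Per3, and Dbp. Mouse 8 had the highest Cry2, Nr1d1, and Nr1d2. Clock departed from this, with mouse 11 highest and mouse 4 at neither end, and the order of mice 3, 7, and 11 varied by gene. Mice 4 and 12 also had the lowest and the highest sum of hepatocyte markers among the controls, 19360 and 39571. Mouse 4 had the high erythroid sum of 50531 given above. What placed these control mice at the ends, cell content and library differences included, was not tested, and the hour of collection was not given.

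Grouped by the time of day at which they usually peak in mouse liver, the members showed how the groups compare. The dawn group was Arntl, Clock, and Cry1, the day group Nr1d1, Nr1d2, Dbp, and Per3, and the dusk group Per1, Per2, and Cry2. Values were centred on the control mean of each gene and averaged within each group of genes. The dawn mean was 0.27, 0.092, and 0.18 in anti-CD40 mice 2, 5, and 9, against -0.97 (mouse 12) to 0.82 (mouse 4) in the control mice. Here the anti-CD40 mice lay within the controls.

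The day mean was -1.96, -1.54, and -1.12 in anti-CD40 mice 2, 5, and 9, against -0.79 (mouse 4) to 0.58 (mouse 12) in the control mice. All 3 anti-CD40 mice were below every control. This repeats the values of Nr1d1, Nr1d2, and Per3, which did not overlap 1 by 1, and is no separate result about day genes. The phase groups were chosen with earlier results of these data known. The dusk mean was -0.48, -0.33, and -0.34, against -0.77 (mouse 4) to 0.68 (mouse 12), so that the anti-CD40 mice were above mouse 4 and below the other 5 controls. No test was made on these means.

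The difference between the day and the dawn mean was -2.23, -1.64, and -1.30 in the anti-CD40 mice. It was -0.25, -1.61, -0.18, 0.90, -0.41, and 1.55 in control mice 3, 4, 7, 8, 11, and 12. Control mouse 4 lay among the anti-CD40 mice by this measure, but with an Arntl of 11.3 that none of them had.

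**Figure D3:**
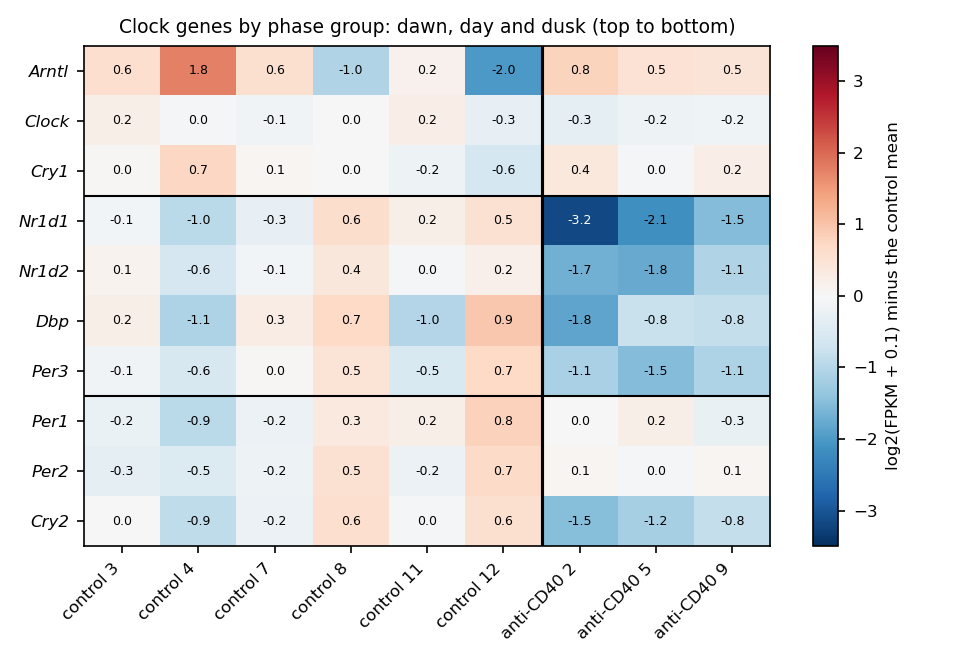
Difference of log2(FPKM + 0.1) from the control mean of each gene (colour and printed value, rounded to 1 decimal), with genes in rows by phase group and mice in columns, control on the left and anti-CD40 on the right of the line. In control mice 4, 8, and 12 the sign of Arntl is opposite to that of every day and dusk gene, and in the anti-CD40 mice Nr1d1, Nr1d2, Per3, and Cry2 are below and Arntl is above the control mean.

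Over all 10 genes, the distance between mice of the same group overlapped that between groups. The root mean square difference in log2(FPKM + 0.1) was 0.39 to 0.69 for the 3 pairs of anti-CD40 mice and 0.17 to 1.76 for the 15 pairs of control mice. Between the groups it was 0.60 to 2.06 over 18 pairs. The control nearest to each anti-CD40 mouse was mouse 4, at 0.98, 0.87, and 0.60 from mice 2, 5, and 9, and the farthest was mouse 12.

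The plot of other genes against Arntl sets these levels side by side. Arntl was between 4.53 and 5.69 in the anti-CD40 mice and 4.95 and 4.86 in control mice 3 and 7. Nr1d1 in those control mice was 6.93 and 6.06, against 0.740 to 2.53 in the anti-CD40 mice. Per2 was 1.02 and 1.15 against 1.28 to 1.40. These pairs of values are a description, with the mice named after their values were seen.

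**Figure D4:**
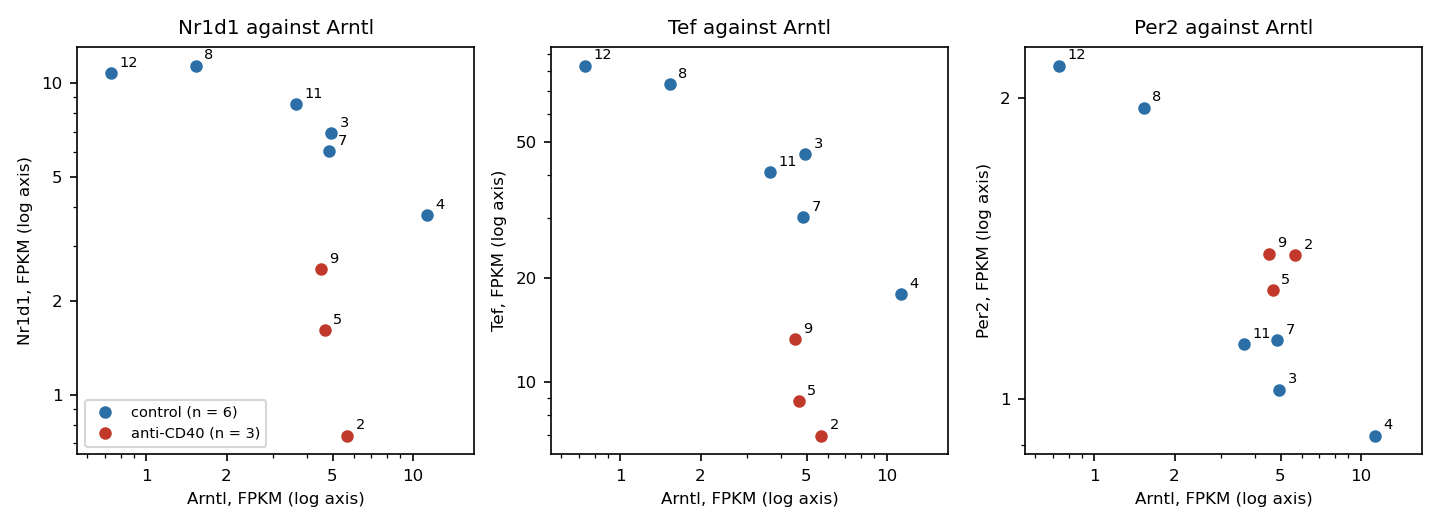
FPKM of Nr1d1, Tef, and Per2 against that of Arntl in each mouse, log axes, points labelled with mouse numbers (blue, 6 control; red, 3 anti-CD40). Control mouse 4 had the highest Arntl and the lowest values of the other genes among the controls, and control mice 8 and 12 the reverse; the anti-CD40 mice, with Arntl between 4.53 and 5.69, had lower Nr1d1 and Tef than every control and Per2 within the control range.

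Among other genes of the clock, both relatives of Dbp were lower. Of 24 listed regulators of the loop, 23 were tested, with 4 called higher, 5 lower, and 14 not past the test (39.1% called, against 45.1% of all tested genes; median log2 fold change 0.026). Tef, the D-box activator related to Dbp, had an FPKM of 6.98, 8.78, and 13.3 in the anti-CD40 mice and of 45.9, 18.0, 30.1, 73.7, 40.7, and 83.2 in the control mice. Its groups did not overlap, and mouse 4 was the lowest and mouse 12 the highest control, as for Dbp and Per3. Tef had a log2 fold change of -2.19 (SE 0.44, adjusted p = 0.00222).

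Hlf, the third gene of that family, had an FPKM of 6.59 to 7.79 against 9.92 to 16.9, again with no overlap and with mouse 4 the lowest control (log2 fold change -0.92, SE 0.17, adjusted p = 0.00120). Nfil3, which represses at the same D-boxes, had a log2 fold change of 0.026 (95% interval -0.48 to 0.54, adjusted p = 0.938). The falls of Tef and Hlf passed under each of the 20 settings.

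Rora, a receptor that activates at ROREs, against NR1D1 and NR1D2, stood at 0.053 on the log2 scale (95% interval -0.32 to 0.43, adjusted p = 0.819). Npas2, a partner of Arntl that can stand in for Clock, had a log2 fold change of 0.69 (95% interval -0.40 to 1.79, adjusted p = 0.279). Its reads were 41, 40, and 27 in the anti-CD40 mice and 34, 35, 38, 7, 17, and 1 in the control mice, so mice 8 and 12, the lowest in Arntl, were also lowest in Npas2.

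The E-box repressors Bhlhe40 and Bhlhe41 had log2 fold changes of -0.15 (adjusted p = 0.767) and 0.52 (adjusted p = 0.0929). Ciart, another repressor of the ARNTL and CLOCK dimer, had 8, 6, and 15 reads against 5, 4, 2, 48, 13, and 126, and its log2 fold change of -0.64 had a 95% interval from -2.89 to 1.61. Its values in the controls again put mice 12 and 8 on top.

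Among the listed genes that modify, degrade, or bind the clock proteins, Fbxl21, a ubiquitin ligase subunit that binds CRY, was lower (log2 fold change -1.52, SE 0.20, adjusted p = 0.000156). Its reads were few, 11, 13, and 14 in anti-CD40 mice 2, 5, and 9 against 29 to 63 in the control mice. With a pseudocount of 1 the log2 fold change of Fbxl21 was -0.70 and still passed. Timeless, which also serves DNA replication, was higher (1.48, SE 0.24, adjusted p = 0.000648). Some smaller calls are named after their values were seen. Csnk1e, Csnk1a1, and Fbxw11 were higher by 0.50, 0.37, and 0.50 on the log2 scale, and Btrc had a log2 fold change of -0.46.

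**Figure D5:**
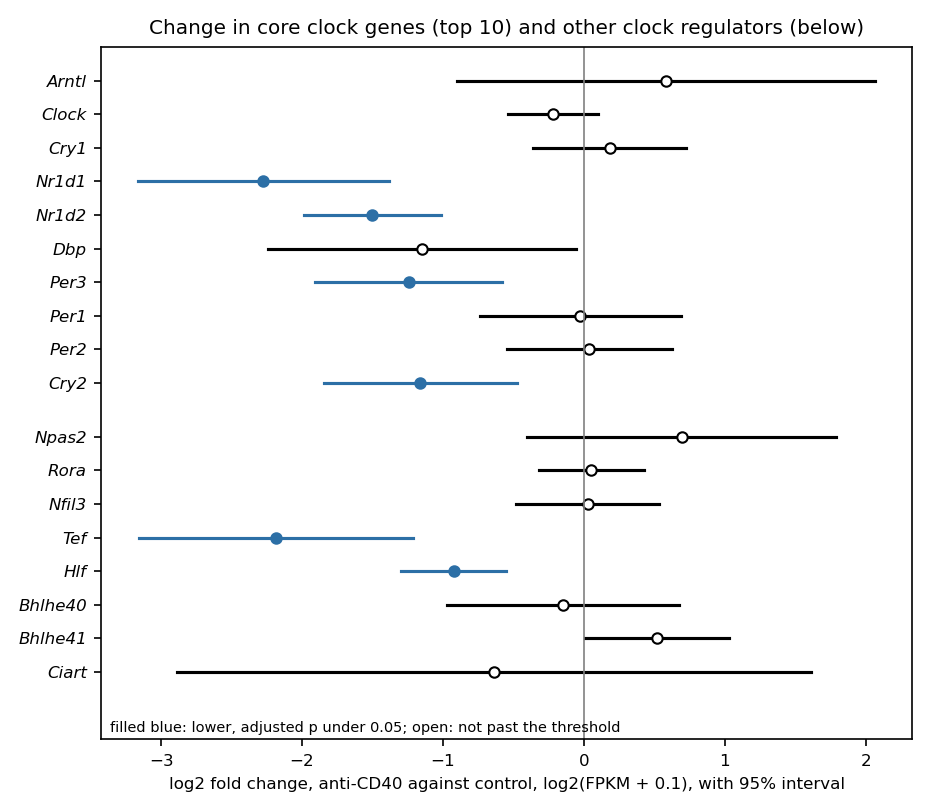
Log2 fold change of the 10 core clock genes and of 8 other clock regulators in the anti-CD40 against the control mice, with 95% intervals from limma (3 against 6 mice); filled blue points are lower at an adjusted p under 0.05 and open points did not pass. Of the genes drawn, the 6 called, Nr1d1, Nr1d2, Per3, Cry2, Tef, and Hlf, were lower. The 4 regulators called higher, and some called lower, are not drawn, so the plot does not show the direction of the regulators as a list. Of all tested genes, 21.7% were called lower and 23.5% higher. The widest intervals belong to Arntl and Ciart, whose levels spread most among the controls.

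The liver genes known to follow the clock moved in both directions. Of 15 listed names, of which Noct and Ccrn4l are the same gene, 14 were tested, with 3 higher, 5 lower, and 6 not past the test (57.1% called, against 45.1% of all tested genes; median log2 fold change -0.31). Nr1i3, the xenobiotic receptor CAR and a known target of D-box activators, had a log2 fold change of -2.38 (SE 0.35, adjusted p = 0.000340). Cyp2b10 and Cyp2a5, drug-metabolizing enzymes known to follow that receptor or those activators, had log2 fold changes of -2.22 (adjusted p = 0.000245) and -2.27 (adjusted p = 0.000368). Cyp7a1, the rate-limiting enzyme of bile acid synthesis, had one of -1.97 (SE 0.44, adjusted p = 0.00431).

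Gys2, the liver glycogen synthase, was the other gene called lower, with a log2 fold change of -0.93, and is named after its value was seen. Wee1, a cell cycle kinase with E-boxes in its promoter, was higher by 1.09 on the log2 scale (SE 0.20, adjusted p = 0.00116). Nampt, the enzyme that limits NAD salvage, was higher by 0.97 on that scale (SE 0.13, adjusted p = 0.000219). For Noct, listed under its older symbol Ccrn4l, the difference was -0.36 on that scale and did not pass (adjusted p = 0.156). The leukocyte markers given above moved with the same groups, and their part in these changes was not tested.

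Because glucocorticoids can set Per1, 9 genes known to respond to them were set beside it, and 3 were lower, 0 higher, and 6, Per1 included, did not pass (33.3% called, against 45.1% of all tested genes, of which 21.7% were lower). At an unadjusted p under 0.05, Sgk1 was the one gene with a higher value. Those lower were Tsc22d3 (log2 fold change -1.26, SE 0.34, adjusted p = 0.0115), Pck1 (-1.25, SE 0.35, adjusted p = 0.0145), and Nr3c1, the glucocorticoid receptor itself (-0.49, SE 0.15, adjusted p = 0.0230). Fkbp5, Dusp1, and Sgk1 had log2 fold changes of 0.50, 0.69, and 0.79, and Tat and Zbtb16 of -0.67 and 0.15, none past the threshold. Without anti-CD40 mouse 2 the count of lower genes was 0, and without control mouse 4 the count of higher genes was 2.

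The genes whose levels across the 9 mice were most like those of a clock gene were taken from the 10155 genes whose mean FPKM reached 1, by the root mean square difference of centred log2 values. For Arntl they were Rpa3 (0.36), Lsm5 (0.36), and Acyp2 (0.42). For Nr1d1 they were Slc2a2 (0.26), Slc16a11 (0.30), and Tef (0.30). For Dbp they were Slc22a3 (0.36), Etnk2 (0.40), and Cyp2d40 (0.42). The difference was smaller for genes that vary less, at 0.097 to 0.12 for Pdcd10, Zfp62, and Syap1 beside Cry1 and at 0.12 to 0.15 for Cblc, Scamp4, and Dcakd beside Per1. These differences describe likeness over 9 mice that also differ by group.

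The directions of the 4 called clock genes held under each scaling, also when Saa1, Saa2, and Saa3, acute phase genes with very high values in the anti-CD40 mice, were dropped before rescaling every mouse to the same total. That rescaling moved the all-gene median to 0.35 on the log2 scale, and with it Clock went to 0.13 and Per1 to 0.33, both on the other side of 0. Quantile normalization moved the median to -0.091, and with it Per2 went to -0.26 and Clock to -0.43, at which Clock passed the test (adjusted p = 0.0323).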

How the data were processed

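Liver RNA from 3 anti-CD40 and 6 control mice was sequenced from the 3′ end (QuantSeq 3′ mRNA-Seq FWD, Illumina NextSeq). Per the labels and methods, STAR was run against mm10, and the authors deposited 1 table of FPKM values per mouse from Cufflinks and Cuffdiff, with a floor of 0.01. The annotation, the table's filter, and the strand setting were not given in the sources used here. Mice were grouped by their labels.

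Of 24341 genes, 15 were dropped for a failed estimate. The deposited FPKM were taken as log2(FPKM + 0.1), and those genes whose mean FPKM reached 0.1 (13807) were tested with limma 3.58.1 in R 4.3.3 (lmFit, eBayes with trend, 2-sided, Benjamini-Hochberg at 0.05 over all tested genes). The test was tried on simulated data first. Pairs of genes were compared by exact permutation (2-sided, all 84 splits into 3 and 6, smallest p 0.0238). No count test was run, since whole reads (within 0.06 of a whole number, up to 1000 reads) were recovered for some genes only. Absolute depth is unknown, so no interval from read totals was made. Genes named were the 10 members, the listed regulators and outputs with an adjusted p under 0.05 and an absolute log2 fold change of at least 1, 11 regulators and outputs whatever their values, all 9 glucocorticoid genes, and the 3 genes most like each of 5 members. Of the regulators and outputs, 2 genes that count in the totals are not reported here. The members, lists, and phase groups were chosen with earlier results of these data known. Likeness, phase means, and motifs were computed in Python 3.11.15, and GENCODE gave strands and overlaps. Alternatives were 2 other pseudocounts, 2 other filters, 3 other scalings, 3 other settings of the model, an adjusted p under 0.01, and leaving out each mouse. Those for the glucocorticoid genes were chosen after seeing the data.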

Additional observations from a re-analysis of the deposited data

How the results depend on the processing

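No paired analysis was possible because the groups share no mouse numbers. The count of core clock genes called lower was 4 in the main analysis, 6 after quantile normalization, 5 with array weights and without control mouse 4 or 11, and 3 at a mean FPKM of at least 1 (8 tested), at an adjusted p under 0.01, and without anti-CD40 mouse 2; none was called higher under any of the 20 settings. Leaving out the Saa genes with rescaling gave 7 regulators called higher (main 4) and 3 lower (main 5), 5 outputs called higher (main 3), and 2 glucocorticoid genes called higher (main 0) and 1 lower (main 3). The regulators called lower were also 3 at a mean FPKM of at least 1 (17 tested) and at an adjusted p under 0.01, where the glucocorticoid genes called lower were 0. Array weights gave 5 outputs and 1 glucocorticoid gene called higher, and quantile normalization 2 glucocorticoid genes. Without 1 mouse at a time the glucocorticoid genes numbered 0 to 2 higher and 0 to 3 lower, with 2 higher without control mouse 4 and 0 lower without anti-CD40 mouse 2.

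Signs turned for Clock (0.13), Per1 (0.33), and Bhlhe40 (0.22) with the Saa genes left out, and for Per2 (-0.26), Nfil3 (-0.0090), and Zbtb16 (-0.10) after quantile normalization. Without 1 mouse at a time the log2 fold change ran from -0.21 to 0.14 for Per1, -0.057 to 0.17 for Per2, -0.067 to 0.15 for Nfil3, -0.072 to 0.23 for Rora, -0.32 to 0.063 for Bhlhe40, and -0.21 to 0.74 for Zbtb16. The differences in log2 ratio ran from 0.96 to 1.42 for Per1 to Per3, 1.18 to 1.35 for Per2 to Per3, -0.97 to -0.42 for Nr1d1 to Nr1d2, and -0.22 to 0.074 for Per1 to Per2. The smallest exact permutation p is then 0.0714 without an anti-CD40 mouse and 0.0357 without a control mouse, so none passed after adjustment, which says nothing of their stability. With a pseudocount of 1 they were 0.41 (adjusted p = 0.190), 0.46 (0.143), and -0.32 (0.286) for the first 3. The causes were not tested. Of 198 values of core clock genes under the alternatives, 181 kept their direction and their side of the threshold, and of 536 of the other named genes 495 did.

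With 3 against 6 mice and a control range of 15.3-fold in Arntl, the intervals of Arntl, Clock, Cry1, Per1, and Per2 hold changes in both directions. The low FPKM of Dbp and its shared position limit that gene, and the hour of collection was not given.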
